A study of Homo sapiens with 16 samples.

Results

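Gene expression after 7 days with elaidic acid was compared with that of cells without added fatty acid, in the human hepatoma line HepG2, which keeps many functions of hepatocytes. Of the 16 samples of the study, 8 belong to this comparison: 4 biological replicates with 100 µM elaidic acid and 4 control replicates. The cells of every group were kept without serum, so the controls share that condition with the treated cells. The other 8 samples, with oleic acid or stearic acid, enter no difference given here, but they share the normalisation, the choice of usable probes and the estimate of the spread between replicates. RNA was amplified, coupled to Cy5 and read on 1-colour arrays of 30968 probes, and 22939 probes could be used. All samples come from 1 tumour line, so nothing here describes normal liver cells.

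Per the labels, the arrays carry numbers from a pair of ranges that the groups do not share evenly. All controls and elaidic acid replicates 2 and 4 lie in one range, and elaidic acid replicates 1 and 3 lie in the other. Within the first, the numbers of control replicate 4 stand apart from the rest. What the ranges stand for is not given in the sources used here. Differences are therefore given over all 4 elaidic acid samples. For most lists and many genes they are given again as replicates 2 and 4 minus the 4 controls, called the shared-range comparison here. A value given alone, without mention of the shared range, is over all 4 elaidic acid samples and so includes replicates 1 and 3.

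Elaidic acid is the trans isomer of oleic acid and occurs in partially hydrogenated fat. Hepatocytes make cholesterol from acetyl-CoA through mevalonate and squalene, and the genes of that pathway are switched on by the transcription factor SREBP-2 when sterols in the endoplasmic reticulum run low. Cells entering mitosis switch on a different, shared programme of cyclin, kinetochore and kinesin genes, many of which carry CCAAT boxes and a cell cycle homology region in their promoters.

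Values are log2 intensities after quantile normalisation, and differences are on that log2 scale, elaidic acid minus control, with the standard error of the limma model. Calls are probes whose Benjamini-Hochberg adjusted p, taken over all probes, is under 0.05. A gene is represented by its probe of highest mean level. Array medians before normalisation lay between 19.95 and 72.8 in the controls and between 25.5 and 57.8 with elaidic acid, on the linear scale. The pair of elaidic acid samples of the shared range correlated with the controls at 0.924 to 0.958 over all probes, and the other pair at 0.815 to 0.943. Correlation between controls was 0.893 to 0.948. Hepatocyte markers (11 of 14 measured) had mean log2 levels of 10.54 to 11.83 in the controls and 11.81 to 12.76 with elaidic acid, and markers of other cell types (18 of 24 measured) had 7.28 to 7.50 and 7.01 to 7.39.

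Over 4 against 4 samples 74 probes were called, 70 higher (0.305% of those tested) and 4 lower (0.0174%). The count depends on the fit: limma called 0 on the 8 elaidic acid and control samples alone and 1 with a minimum change of 1.5-fold. It called 25 without elaidic acid replicate 1 or without replicate 3, and 28 with the replicate number as a block. The gene calls below rest on the fit over all 16 samples. In the shared-range comparison 9 were called, 6 higher (0.0262%) and 3 lower (0.0131%). Of the 74 probes, 6 were called in both. The median of the 70 higher probes was 1.59 over all samples, 1.37 for replicates 2 and 4 and 1.74 for replicates 1 and 3. In 20 of the 74 the change was larger in replicates 2 and 4. A single symbol was available for 65 of the called probes. Of these, 18 belong to mitosis, mitotic kinesins or DNA replication, 3 to cholesterol synthesis, 2 to sterol uptake and its control, 4 to fatty acid lists and 3 to secreted plasma proteins. Measured genes number 41, 6 and 52 for mitosis, kinesins and replication, 7 and 10 for cholesterol synthesis and 12 for sterol uptake. The fatty acid lists (synthesis, oxidation, uptake and droplets) have 17, 21, 15 and 17, and those of plasma proteins 20, 12 and 24. Over all probes 0.305% were called higher, and 30 of the 65 stand in no list.

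**Figure D1:**
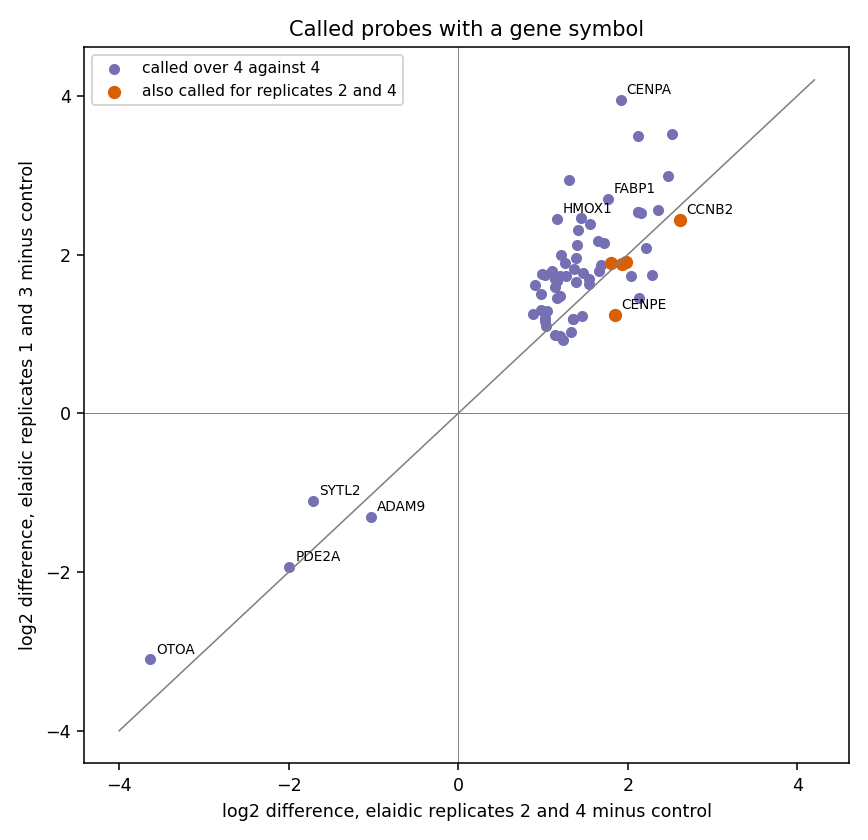
Each point is a called probe with a gene symbol, with the log2 difference from control of elaidic acid replicates 2 and 4 on the x axis and that of replicates 1 and 3 on the y axis. The diagonal marks equal differences. Most rises lie above it, CENPA (1.91 against 3.95) far above, while CCNB2 and CENPE, called in both comparisons, lie below it.

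The enzymes of cholesterol synthesis were higher with elaidic acid along most of the pathway. From squalene to cholesterol 10 of 10 measured enzymes had positive differences in both comparisons, with a median of 1.19 over all samples and 0.94 in the shared range. Of these, 3 were called, and the groups did not overlap for 7 (non-overlap on the higher side held for 3.82% of all probes). In the shared range limma called 0, and 7 of 10 had an unadjusted p under 0.05 (3.13% of all probes on the higher side). With 1 probe per gene symbol, 6201 of 12085 probes were higher and the median was 0.02, against 0.03 in the shared range.

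Promoters of a pair of enzymes of this arm are shown for letters that bear on the pathway. Sequences are from RefSeq on GRCh38.p14, 250 bases before the annotated start, 5′ to 3′ on the strand of the gene. Capitals mark CCAAT, the box bound by NF-Y, a partner of SREBP, or its reverse complement ATTGG, and CACCCCA, a core of sterol regulatory elements. NSDHL was called and EBP was not.
NSDHL, chrX:152830813-152831062, plus strand: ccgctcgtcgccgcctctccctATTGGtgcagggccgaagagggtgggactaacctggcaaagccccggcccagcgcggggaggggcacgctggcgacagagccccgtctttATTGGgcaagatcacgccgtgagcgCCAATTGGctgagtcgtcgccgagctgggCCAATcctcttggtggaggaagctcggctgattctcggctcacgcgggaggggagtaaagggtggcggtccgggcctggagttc
EBP, chrX:48521558-48521807, plus strand: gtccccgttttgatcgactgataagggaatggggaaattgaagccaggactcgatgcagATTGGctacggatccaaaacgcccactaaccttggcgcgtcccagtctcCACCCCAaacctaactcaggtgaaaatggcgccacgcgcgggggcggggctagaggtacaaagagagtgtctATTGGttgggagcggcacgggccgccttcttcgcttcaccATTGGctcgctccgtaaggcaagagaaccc

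In NSDHL 5 CCAAT matches on either strand were found, of which a pair overlap in the run CCAATTGG. EBP had 3 CCAAT matches and 1 CACCCCA match. In windows that also take in 50 bases after the start, CCAAT on either strand occurred in 10 of 14 promoters of cholesterol enzymes (71.4%) and in 35.7% of all 27305 promoters. CACCCCA occurred in 3 of 14 (21.4%) and in 7.83% of all. CYP51A1, called, held none of the motifs searched in the stretch before its start.

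Squalene epoxidase, SQLE, which opens this arm, had log2 levels of 7.83, 8.34, 7.98 and 8.44 in control replicates 1 to 4 and 9.96, 8.97, 9.84 and 9.39 with elaidic acid. All elaidic acid samples lay above all controls, with replicates 1 and 3 highest. The rise of SQLE was 1.39 ± 0.26 (SE, with 4 samples a group; adjusted p = 0.032), and the shared-range difference was 1.03 ± 0.27 (adjusted p = 0.27). The lanosterol demethylase CYP51A1 stood at 9.08, 9.36, 9.45 and 9.21 in control and at 11.13, 10.49, 11.06 and 10.78 with elaidic acid. It rose by 1.59 ± 0.21 (adjusted p = 0.0038), the smallest p of the pathway, and the shared-range value was 1.36 ± 0.23 (adjusted p = 0.058). A second, dimmer CYP51A1 probe had -0.31 and 0.20 in these comparisons and was not called.

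NSDHL, which takes part in removing methyl groups from the sterol ring, had the smallest spread between elaidic acid samples in this arm. Its levels were 9.12, 9.46, 9.40 and 8.79 in control and 10.27, 10.31, 10.31 and 10.14 with elaidic acid. It rose by 1.07 ± 0.21 (adjusted p = 0.042), with 1.03 ± 0.25 in the shared range. SC5D, a late sterol desaturase, had 9.17, 10.02, 9.27 and 9.70 in control and 11.32, 10.20, 11.06 and 10.86 with elaidic acid, a difference of 1.32 ± 0.29 that was not called (adjusted p = 0.078). For EBP, the sterol isomerase, every elaidic acid value (7.52 to 8.01) was above every control value (6.85 to 7.06), and the difference of 0.75 ± 0.22 was not called. TM7SF2, a sterol reductase, had controls within 11.26 to 11.32 and elaidic acid samples within 11.97 to 12.35, a difference of 0.84 ± 0.22 (adjusted p = 0.13).

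For some enzymes of this arm replicates 1 and 3 were well above replicates 2 and 4. DHCR7, which makes cholesterol in the last step of one branch, had 9.08 in control replicate 1 and 10.59 to 11.20 in the other controls. With elaidic acid it had 12.97 and 12.73 in replicates 1 and 3 and 11.88 and 11.61 in replicates 2 and 4, a difference of 1.89 ± 0.49 (adjusted p = 0.12), with 1.33 ± 0.56 in the shared range. LBR, a sterol reductase of the nuclear membrane, had 9.68 and 9.28 in replicates 1 and 3, but 7.16 and 7.21 in replicates 2 and 4, inside its control range of 5.29 to 7.49. Its difference was 1.70 ± 0.59 over all samples and 0.55 ± 0.52 in the shared range. MSMO1 (0.48, and 0.08 in the shared range) and HSD17B7 (0.95 and 0.50) also overlapped between groups.

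**Figure D2:**
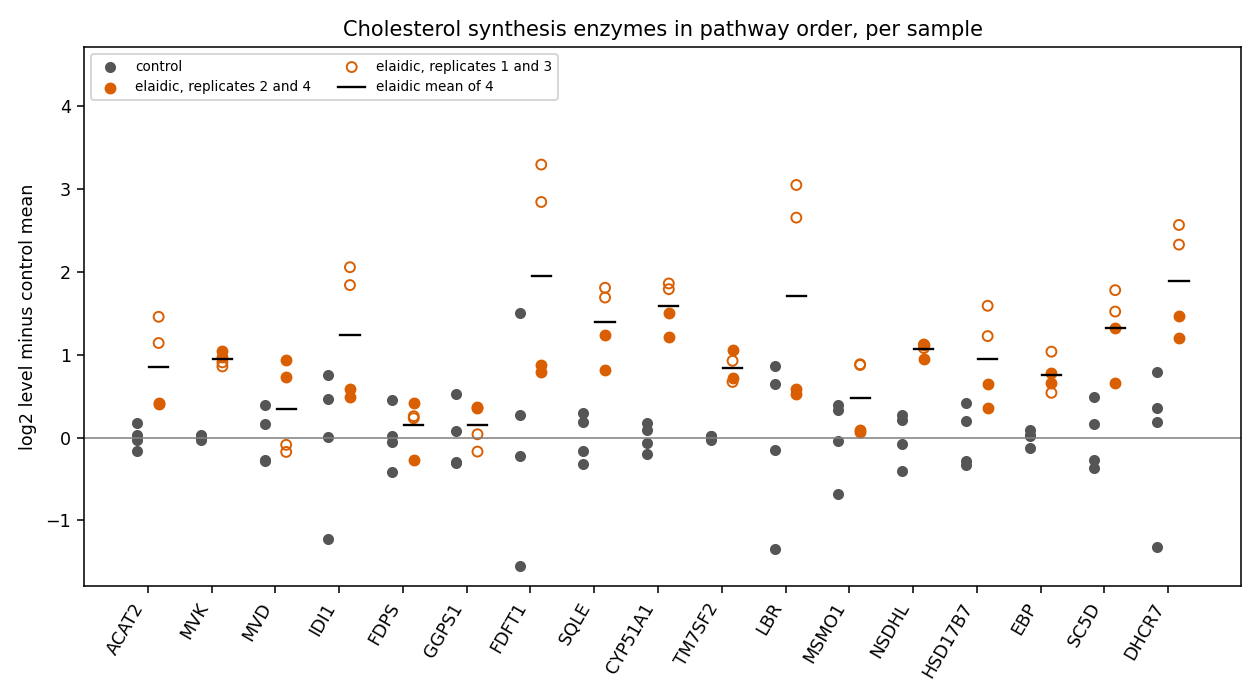
Log2 level of each cholesterol synthesis enzyme minus its control mean, in pathway order from ACAT2 to DHCR7, for 4 control samples (grey), elaidic acid replicates 2 and 4 (filled orange) and 1 and 3 (open orange), with the elaidic acid mean as a bar. For CYP51A1, NSDHL, TM7SF2 and MVK all elaidic acid points are above all control points, while for FDFT1 and LBR replicates 2 and 4 lie within the spread of the controls.

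In the mevalonate and isoprenoid arm 7 of 7 measured enzymes had positive differences, with a median of 0.85 and, in the shared range, 0.54. In limma 0 were called in either comparison, and 4 of 7 had an unadjusted p under 0.05 (8.1% of all probes on the higher side), or 2 of 7 in the shared range (3.13%). MVK, mevalonate kinase, had 7.25, 7.29, 7.31 and 7.25 in control and 8.13, 8.25, 8.18 and 8.32 with elaidic acid. The groups did not overlap, and the difference of 0.94 ± 0.23 was not called (adjusted p = 0.11); limma's error draws on all groups and probes, not on these 8 values alone. ACAT2, the thiolase of the first step, had 9.68 to 10.02 in control and 11.31, 10.26, 10.99 and 10.26 with elaidic acid, a difference of 0.85 ± 0.25. The shared-range difference of ACAT2 was 0.41 ± 0.24. FDFT1, squalene synthase, ranged from 7.99 to 11.03 in control, and its difference of 1.95 ± 0.65 became 0.83 ± 0.63 in the shared range. MVD, the decarboxylase, went the other way, with 12.21 and 12.30 in replicates 1 and 3 and 13.11 and 13.32 in replicates 2 and 4 against 12.10 to 12.78 in control. FDPS and GGPS1, which make longer isoprenoids, had differences of 0.16 ± 0.28 and 0.15 ± 0.24.

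Of the genes that control SREBP or bring sterol into the cell, 10 of 12 had positive differences over all samples and 7 of 12 in the shared range, with medians of 0.36 and 0.26. LIPA, the lysosomal acid lipase that frees cholesterol from lipoprotein esters, had 10.31, 10.46, 10.30 and 10.52 in control and 12.42, 11.48, 12.16 and 11.83 with elaidic acid. LIPA rose by 1.57 ± 0.24 (adjusted p = 0.0094) with 1.26 ± 0.25 in the shared range, and a dimmer LIPA probe had -0.22. NPC2, which hands cholesterol from the lysosome to NPC1, has 2 probes with unequal results. The dimmer one had 7.02, 7.77, 7.03 and 7.51 in control and 9.04, 8.32, 9.13 and 8.31 with elaidic acid and rose by 1.37 ± 0.25 (adjusted p = 0.030). The brighter one had a difference of 1.68 ± 0.51 that was not called (adjusted p = 0.18), with control replicate 1 at 8.73 and the other controls at 10.24 to 10.92.

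SREBF2, which encodes SREBP-2, had 7.88, 9.33, 8.30 and 9.31 in control and 10.62, 9.83, 10.47 and 9.52 with elaidic acid. All elaidic acid values were above the controls, and the difference of 1.40 ± 0.38 was not called (adjusted p = 0.13). In the shared range it was 0.97 ± 0.43. A dimmer SREBF2 probe had 0.79 ± 0.38, and 0.21 in the shared range, and was not called. SREBF1, which encodes the SREBP that favours fatty acid genes, had a difference of 0.04 ± 0.24, negative after cyclic loess (-0.027) and with array weights (-0.10). Its shared-range difference was 0.33 ± 0.26. A dimmer SREBF1 probe had 0.65 ± 0.34, and 0.32 in the shared range, and was not called. SCAP, the escort of SREBP, had -0.71 ± 0.26 and was not called. SOAT1, which esterifies cholesterol, had 8.95 to 9.59 in control and 9.79 to 10.64 with elaidic acid, a difference of 0.99 ± 0.22 (adjusted p = 0.079). ABCA1, which exports cholesterol, had 8.12 in control replicate 1 and 9.31 to 9.41 in the other controls, and elaidic acid values from 9.13 to 10.40 overlapped them. INSIG1 and SCD lay near background, with values at or below 0 on at least 1 of the 16 samples (for SCD in another group), and were left out.

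Among fatty acid genes, called members were scattered over elongation, activation, binding and oxidation. ELOVL6, which elongates saturated and monounsaturated C16 acids, had 10.70, 10.54, 10.12 and 9.75 in control and 12.24, 11.62, 11.56 and 12.02 with elaidic acid. It rose by 1.58 ± 0.27 (adjusted p = 0.017), with almost the same value in the shared range, 1.54 ± 0.33 (adjusted p = 0.13). Its second probe, dimmer, had 1.31 ± 0.33 and was not called. In its list of fatty acid synthesis 13 of 17 genes were higher, with medians of 0.32 and 0.29, and ELOVL6 was the only one called. ACSS2, which activates acetate, had control values of 4.69 to 6.80 and elaidic acid values of 7.51 to 9.52, a difference of 2.28 ± 0.50 that was not called (adjusted p = 0.073). SLC25A1, the mitochondrial citrate carrier, had 8.11 to 9.13 against 9.58 to 9.81, a difference of 1.19 ± 0.26 (adjusted p = 0.077).

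FABP1, the liver fatty acid binding protein, had 10.88, 12.61, 12.43 and 13.09 in control and 14.94, 14.09, 14.96 and 13.94 with elaidic acid. Its control replicate 1 was the lowest sample by a wide margin. FABP1 rose by 2.23 ± 0.43 (adjusted p = 0.040), 4.70-fold, with 1.77 ± 0.50 in the shared range (adjusted p = 0.35). Its dimmer probe had 2.14 ± 0.52 and was not called. ACSL4, an acyl-CoA synthetase with a preference for arachidonic acid, had 9.13, 9.47, 8.86 and 9.02 in control and 11.01, 9.96, 10.69 and 10.68 with elaidic acid and rose by 1.47 ± 0.24 (adjusted p = 0.014). Its relative ACSL3 had 1.98 ± 0.56, and 0.86 ± 0.49 in the shared range, with overlapping groups, and was not called. Control levels of ACSL3 lay near background (1.13 to 3.44). HADH, a dehydrogenase of mitochondrial beta-oxidation, had 11.32, 11.25, 11.15 and 10.85 in control and 12.26, 12.31, 11.88 and 12.45 with elaidic acid. HADH rose by 1.08 ± 0.20 (adjusted p = 0.032), and its shared-range value of 1.24 ± 0.23 (adjusted p = 0.075) was no smaller.

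In the oxidation list as a whole 16 of 21 genes were higher with a median of 0.41, and 13 of 21 with 0.17 in the shared range. Triglyceride synthesis and droplet genes were higher for 14 of 17 with medians of 0.52 and 0.40. In limma 0 were called, and 7 had an unadjusted p under 0.05 on the higher side and 1 on the lower (8.1% and 6.21% of all probes). In the shared range these counts were 3 and 1 (3.13% and 3.4% of all probes). DGAT2, which completes triglyceride synthesis, had 7.62 to 7.96 in control and 8.41, 8.86, 8.45 and 8.56 with elaidic acid, a difference of 0.73 ± 0.18 (adjusted p = 0.11) and 0.88 ± 0.20 in the shared range. DGAT1, which catalyses the same reaction, had 0.67 ± 0.22 and 0.75 ± 0.26. Apolipoprotein and VLDL assembly genes were higher for 12 of 14, with medians of 0.47 and 0.38. Here limma called 0, and 4 had an unadjusted p under 0.05 on the higher side (8.1% of all probes), or 3 in the shared range (3.13%). APOA4 had 6.48 to 7.42 against 7.72 to 8.54, a difference of 1.27 ± 0.32 (adjusted p = 0.11).

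Genes of mitosis held the largest group of calls. Of 41 measured mitosis and kinetochore genes 36 were higher in each comparison, and the median was 1.12 over all samples and 1.13 in the shared range. Over 4 against 4 samples 11 were called (0.305% of all probes) and 20 did not overlap between groups (3.82% of all probes). In the shared range 2 were called and in 25 both samples lay above all controls, as for 7.17% of all probes. Of 6 measured mitotic kinesins 6 were higher, with medians of 1.55 and 1.42, and 2 were called. In a culture, more cells in division and more of these transcripts per dividing cell cannot be told apart.

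Promoters of mitosis genes that rose are shown for their pattern of CCAAT boxes near a cell cycle homology region. Capitals mark CCAAT or its reverse complement ATTGG, and TTTGAA, a core of the cell cycle homology region, or its reverse complement TTCAAA. One CACCCCA match in CCNB2 is also in capitals. RRM2, a replication gene that rose, is shown beside them. These promoters, like the pair above, were chosen after the motif matches were seen.
CCNB2, chr15:59104896-59105145, plus strand: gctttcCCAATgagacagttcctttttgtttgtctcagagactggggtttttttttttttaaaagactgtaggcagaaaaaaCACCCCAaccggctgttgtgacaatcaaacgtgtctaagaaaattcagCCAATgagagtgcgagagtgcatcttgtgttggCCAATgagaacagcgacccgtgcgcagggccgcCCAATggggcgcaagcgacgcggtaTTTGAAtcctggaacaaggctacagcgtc
KIF4A, chrX:70289854-70290103, plus strand: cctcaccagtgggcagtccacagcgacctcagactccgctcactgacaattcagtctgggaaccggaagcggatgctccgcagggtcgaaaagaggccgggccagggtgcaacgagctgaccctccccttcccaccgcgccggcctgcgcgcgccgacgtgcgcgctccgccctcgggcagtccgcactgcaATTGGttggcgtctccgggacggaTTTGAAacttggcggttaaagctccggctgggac
ZWINT, chr10:56361260-56361509, minus strand: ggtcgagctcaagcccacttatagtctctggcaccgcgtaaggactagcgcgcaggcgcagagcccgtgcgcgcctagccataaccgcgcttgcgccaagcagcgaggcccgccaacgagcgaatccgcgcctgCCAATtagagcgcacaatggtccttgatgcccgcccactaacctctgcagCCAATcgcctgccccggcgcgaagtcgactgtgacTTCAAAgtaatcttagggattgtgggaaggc
ASPM, chr1:197146670-197146919, minus strand: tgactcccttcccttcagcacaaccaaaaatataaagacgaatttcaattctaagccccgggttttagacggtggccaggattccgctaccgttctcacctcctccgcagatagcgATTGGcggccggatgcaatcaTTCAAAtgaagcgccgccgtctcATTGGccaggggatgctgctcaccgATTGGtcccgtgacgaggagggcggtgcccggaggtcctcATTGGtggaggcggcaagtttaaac
RRM2, chr2:10122489-10122738, plus strand: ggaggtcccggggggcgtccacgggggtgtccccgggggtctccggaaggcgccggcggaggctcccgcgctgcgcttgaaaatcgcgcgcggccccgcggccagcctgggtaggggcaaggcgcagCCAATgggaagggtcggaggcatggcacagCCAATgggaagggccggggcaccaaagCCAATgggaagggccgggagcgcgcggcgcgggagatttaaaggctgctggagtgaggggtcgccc

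CCNB2 had 4 CCAAT matches and a TTTGAA match starting 29 bases before the start. In KIF4A the TTTGAA match began 34 bases before the start and in ZWINT the match on the opposite strand lay at 31 bases, each with a CCAAT match further upstream at 58 and 66 bases. ASPM had 4 CCAAT matches, all on the opposite strand, and its TTTGAA match lay further upstream, at 113 bases, with 3 of the CCAAT matches between it and the start. RRM2 had 3 CCAAT matches and no TTTGAA match. CENPE, TK1 and FEN1, called and described below, held none of the motifs searched before their starts. In windows with 50 bases after the start added, TTTGAA on either strand occurred in 23 of 35 mitosis promoters (65.7%) and in 15.4% of all promoters, or 10.6% of those of genes with a probe in the fit. CCAAT occurred in 27 of 35 (77.1%), against 35.7% and 36.4%. Of 46 promoters of replication genes 1 held TTTGAA, and 17 (37.0%) held GCGGGAA, a core of E2F sites found in 6.56% of all. Among the 50 promoters found for all genes called higher, CCAAT occurred in 20 (40%) and TTTGAA in 14 (28%). CACCCCA occurred there in 3 (6%, against 7.83% of all) and GCGGGAA in 6 (12%). These counts describe letters in the windows and show no binding.

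CCNB2, the cyclin B2 that partners CDK1, had 6.77, 6.39, 7.38 and 6.41 in control and 9.27, 9.40, 9.07 and 9.30 with elaidic acid. The elaidic acid samples of both array ranges lay close together, from 9.07 to 9.40, and above all controls. CCNB2 rose by 2.52 ± 0.27 (adjusted p = 0.0019), 5.75-fold, and by 2.62 ± 0.33 in the shared range (adjusted p = 0.015). CENPE, a kinetochore motor, had 8.89, 8.44, 9.03 and 8.45 in control and 10.13, 10.46, 9.76 and 10.65 with elaidic acid. It rose by 1.55 ± 0.26 (adjusted p = 0.017) and by 1.85 ± 0.29 in the shared range (adjusted p = 0.040).

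Other mitosis genes rose over all samples and were not called in the shared range. OIP5, which helps load the centromeric histone, had 2.60, 3.31, 3.40 and 2.15 in control and 6.04, 4.84, 5.66 and 5.84 with elaidic acid, a rise of 2.73 ± 0.38 (adjusted p = 0.0049) from control levels near background. ASPM, a spindle pole protein, had 5.68, 5.33, 5.64 and 4.83 against 7.98, 7.51, 7.84 and 7.48, and rose by 2.33 ± 0.30 (adjusted p = 0.0038). Their shared-range values were 2.47 ± 0.45 and 2.12 ± 0.36. NUSAP1, which bundles spindle microtubules, rose by 1.94 ± 0.27, the kinetochore protein ZWINT by 1.67 ± 0.22 and the proliferation marker MKI67 by 1.52 ± 0.21. MKI67 had 6.12 to 6.35 in control and 7.53 to 7.89 with elaidic acid, with little spread in either group. BIRC5, the survivin of the chromosomal passenger complex, rose by 1.42 ± 0.27, and CDCA5, which stabilises cohesin, by 1.86 ± 0.28. A second BIRC5 probe, slightly dimmer, had 0.41 ± 0.30 and was not called.

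CENPA, the centromeric histone itself, depended more on the range. It had 4.24, 4.37, 4.02 and 5.09 in control and 8.35, 6.22, 8.41 and 6.47 with elaidic acid, so replicates 2 and 4 lay about midway. CENPA rose by 2.93 ± 0.53 (adjusted p = 0.029), with 1.91 ± 0.48 in the shared range, and a second probe near background had -0.16. CEP55, which acts at abscission, had 2.52 to 4.17 in control and 7.03, 5.51, 6.58 and 5.35 with elaidic acid and rose by 2.80 ± 0.46. FAM83D, a spindle protein, rose by 2.12 ± 0.40 with 1.31 ± 0.34 in the shared range.

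Among the kinesins, KIF2C, which takes apart microtubules at centromeres, had 8.10, 7.30, 8.42 and 7.18 in control and 9.52, 10.20, 9.45 and 9.87 with elaidic acid. It rose by 2.01 ± 0.31 (adjusted p = 0.012), and its shared-range value of 2.28 ± 0.37 had an adjusted p of 0.051. KIF4A, a chromokinesin, had 5.76, 5.03, 6.35 and 4.97 against 7.63, 8.10, 7.58 and 7.39, and rose by 2.15 ± 0.33 (adjusted p = 0.0094). KIF20A, which acts in cytokinesis, had 1.09 ± 0.24, and the spindle motor KIF11 had 4.04 to 5.39 against control levels near background (1.94 to 3.77), and neither was called (adjusted p = 0.079 each). In both the groups did not overlap. For KIF2C and KIF4A controls 1 and 3 were higher than controls 2 and 4.

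In DNA replication and nucleotide supply 33 of 52 genes (63.5%) were higher, against 51.3% with 1 probe per gene symbol over all genes. The median was 0.41 over all samples, running from 0.185 to 0.561 over the alternatives, and 0.22 in the shared range. Of the 52 genes, 4 were called higher (0.305% of all probes), or 1 in the shared range (0.0262%). RRM2, the small subunit of ribonucleotide reductase, had 8.96, 8.25, 9.08 and 8.59 in control and 10.63, 10.71, 10.61 and 10.68 with elaidic acid. These elaidic acid samples were the closest together of the genes called in both comparisons, and RRM2 rose by 1.94 ± 0.23 (adjusted p = 0.0025) and by 1.97 ± 0.28 in the shared range (adjusted p = 0.033). TK1, the cytosolic thymidine kinase, had 10.02, 9.76, 10.86 and 9.63 against 11.78, 12.32, 11.80 and 11.90, and rose by 1.88 ± 0.30, while a dimmer TK1 probe had -0.26. FEN1, the flap nuclease, rose by 1.61 ± 0.29, and CDC45 (CDC45L in the probe table), of the replicative helicase, by 1.11 ± 0.22. BRCA1 (1.09 ± 0.24, adjusted p = 0.079) and the helicase subunit MCM3 (0.82 ± 0.19, adjusted p = 0.084) were not called and did not overlap between groups.

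GINS2, another helicase subunit, had the largest rise of a called probe and a probe that disagreed. The called probe had 3.69, 3.71, 6.25 and 4.40 in control and 8.22, 7.11, 7.85 and 6.96 with elaidic acid, a rise of 3.02 ± 0.50 (adjusted p = 0.017). The brighter GINS2 probe, which stands for the gene in the list, had -0.33 ± 0.26 and was not called. PIF1, a DNA helicase, rose by 2.34 ± 0.32 (adjusted p = 0.0049). Outside the lists, called genes linked to the cell cycle included PKMYT1, a kinase that restrains CDK1, which rose by 1.18 ± 0.22. PCLAF (KIAA0101), a PCNA-binding protein, rose by 1.27 ± 0.25, TROAP, a spindle protein, by 1.79 ± 0.32, and LMNB1, lamin B1, by 1.78 ± 0.27. A dimmer LMNB1 probe had 0.77 ± 0.39 and was not called. CDKN3, a phosphatase of cyclin-dependent kinases, rose by 1.27 ± 0.25.

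**Figure D3:**
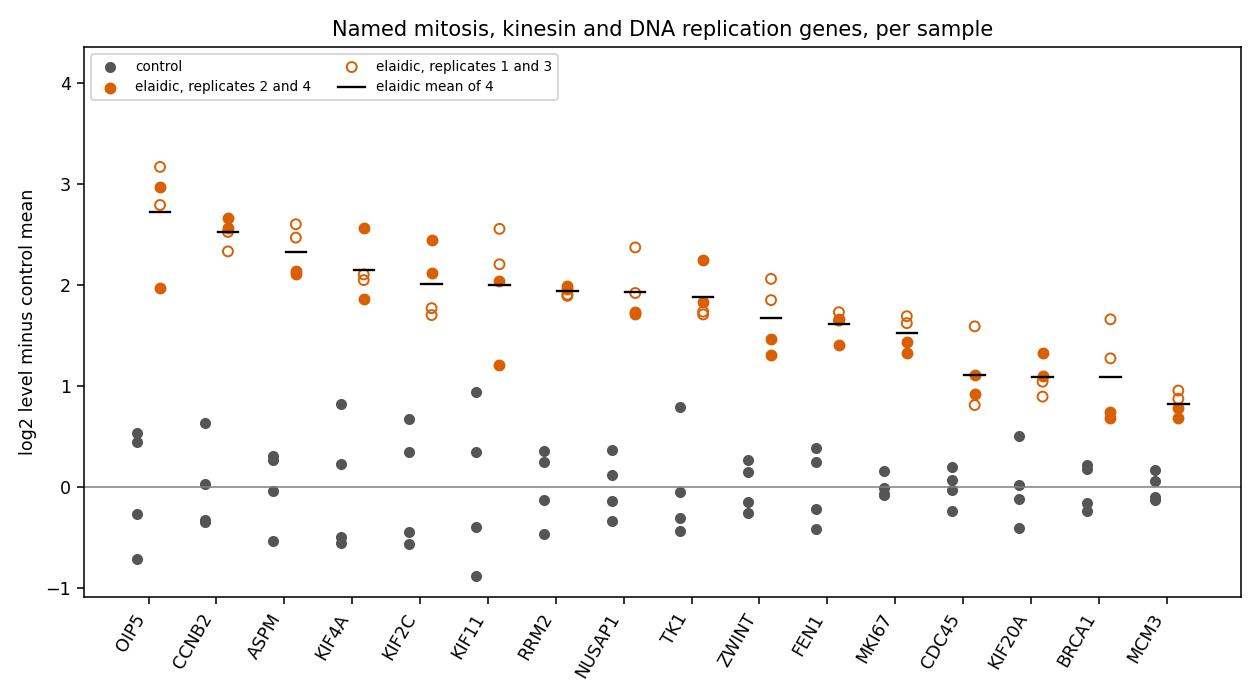
Log2 level minus the control mean for named mitosis, kinesin and replication genes, with 4 control samples (grey), elaidic acid replicates 2 and 4 (filled orange), replicates 1 and 3 (open orange) and the elaidic acid mean (bar). For RRM2, CCNB2 and MKI67 the filled and open points lie close together and above all control points.

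Inhibitors of the cycle and arrest genes had mixed directions. Among p53 targets and CDK inhibitors 14 of 25 were higher, with a median of 0.14 over all samples and -0.19 in the shared range. In limma 0 were called, and the unadjusted p was under 0.05 for 3 higher and 2 lower genes (8.1% and 6.21% of all probes). CDKN1A, the p21 inhibitor, had 5.90, 7.31, 6.86 and 7.11 in control and 7.57, 6.47, 7.66 and 6.74 with elaidic acid. Its difference was 0.31 ± 0.41 over all samples and -0.19 ± 0.46 in the shared range. MDM2, the p53 ligase, had -0.83 ± 0.26 and was not called. CDKN2C, the p18 inhibitor, had 3.21 ± 0.73 (adjusted p = 0.084), with control replicate 1 at -0.01 on the log2 scale, close to background. G1 cyclins, pocket proteins and mitogen response genes had medians of 0.13 and 0.06, with 0 of 18 called by limma. At an unadjusted p under 0.05, 1 was higher and 1 lower (8.1% and 6.21% of all probes).

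Secreted plasma proteins, a main product of hepatocytes, were mostly higher, more so in replicates 1 and 3. The coagulation and contact system list had 17 of 20 genes higher with a median of 0.87 over all samples, and 15 of 20 with 0.35 in the shared range. Plasma serpins had 10 of 12 higher in both, with medians of 0.89 and 0.66. Acute phase proteins, complement and carriers had 21 of 24 and 16 of 24 higher, with medians of 0.91 and 0.44. In each list 1 gene was called higher (0.305% of all probes). Groups did not overlap on the higher side for 6 coagulation genes, 4 serpins and 6 acute phase genes (3.82% of all probes).

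KNG1, kininogen, the source of bradykinin, was the coagulation gene called. It had 8.70, 8.85, 9.56 and 8.87 in control and 10.85, 11.13, 10.90 and 10.72 with elaidic acid, and all 4 treated samples were alike. KNG1 rose by 1.91 ± 0.22 (adjusted p = 0.0025) and by 1.93 ± 0.26 in the shared range (adjusted p = 0.026). Coagulation factor F10 had 1.36 ± 0.41 over all samples and 0.72 ± 0.42 in the shared range, and F8 had 1.08 ± 0.24 (adjusted p = 0.073) and 1.27 ± 0.27. F12 had 0.82 ± 0.22. None of these factors was called.

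SERPINA6, which carries cortisol in plasma, had 7.64, 8.07, 7.72 and 7.65 in control and 9.11, 8.92, 9.39 and 9.03 with elaidic acid and rose by 1.34 ± 0.20 (adjusted p = 0.0094; 1.21 ± 0.24 in the shared range). SERPINF2, the plasmin inhibitor, had 8.44 to 8.73 against 9.30 to 9.47, a difference of 0.85 ± 0.18 (adjusted p = 0.067) and 0.90 ± 0.22. TTR, transthyretin, the carrier of thyroxine and of the retinol-binding protein, had 12.38, 13.21, 13.34 and 13.38 in control and 14.89, 14.96, 14.85 and 14.53 with elaidic acid. TTR rose by 1.73 ± 0.28 (adjusted p = 0.014), with 1.66 ± 0.34 in the shared range. Transferrin, TF, had a larger difference of 2.24 ± 0.48 that was not called (adjusted p = 0.065), from controls spread between 7.13 and 9.29. The shared-range difference of TF was 1.49 ± 0.49. ITIH1, a hyaluronan-binding plasma protein, and HPX, the haem carrier, had 0.89 ± 0.19 (adjusted p = 0.064) and 0.93 ± 0.22, and neither was called.

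PCOLCE, which enhances the cleavage of procollagen, was called in both comparisons and stands in none of the lists. It had 7.84, 7.91, 8.21 and 7.95 in control and 9.75, 10.18, 9.98 and 9.37 with elaidic acid. It rose by 1.84 ± 0.23 (adjusted p = 0.0027) and by 1.80 ± 0.28 in the shared range (adjusted p = 0.040). Fibulin 1, FBLN1, another extracellular matrix protein, rose by 1.06 ± 0.21. Other liver genes among the calls were AGXT, the peroxisomal enzyme that removes glyoxylate, which rose by 1.91 ± 0.36, and SULT2A1, which sulphates bile acids and steroids, which rose by 1.07 ± 0.20. Lysosomal cathepsin H, CTSH, rose 2.83-fold, and its shared-range difference was 1.27 ± 0.34. PGRMC1, a haem-binding partner of cytochrome P450 enzymes including CYP51A1, had 9.91 to 10.18 in control and 11.95, 10.94, 11.63 and 11.28 with elaidic acid and rose by 1.45 ± 0.23 (adjusted p = 0.012).

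Stress genes differed by list. In the ATF4 and serine synthesis list 16 of 23 genes were higher over all samples and 18 of 23 in the shared range, with medians of 0.55 and 0.50. TRIB3, a pseudokinase induced by ATF4, had 9.97 in control replicate 1, 10.85 to 10.91 in the other controls and 12.20, 11.76, 12.01 and 11.88 with elaidic acid. TRIB3 rose by 1.31 ± 0.26 (adjusted p = 0.043; 1.17 ± 0.31 in the shared range) and was the only called gene of its list. PHGDH, the first enzyme of serine synthesis, had 8.57 to 9.02 against 9.55 to 9.90, a difference of 0.97 ± 0.22 (adjusted p = 0.084).

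The NRF2 list had 18 of 23 genes higher with a median of 0.57, but 13 of 23 with 0.16 in the shared range. HMOX1, haem oxygenase 1, had 4.87, 5.31, 5.46 and 5.76 in control and 7.87, 6.79, 7.73 and 6.23 with elaidic acid. It rose by 1.81 ± 0.35 (adjusted p = 0.040), with 1.16 ± 0.32 in the shared range. GPX2, a glutathione peroxidase, had 1.30 ± 0.29 (adjusted p = 0.079), and SOD2, the mitochondrial superoxide dismutase, 1.77 ± 0.40 (adjusted p = 0.079), and neither was called. Their shared-range values were 0.97 ± 0.33 and 0.96 ± 0.33. Of 24 unfolded protein response genes 20 were higher with medians of 0.56 and 0.27; limma called 0, and 10 had an unadjusted p under 0.05 on the higher side (8.1% of all probes), or 3 in the shared range (3.13%). HSPA5, the chaperone BiP, had 4.89 to 5.64 in control and 6.88, 6.77, 6.85 and 5.79 with elaidic acid, a difference of 1.26 ± 0.30 (adjusted p = 0.095).

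Lists of genes that every cell uses also had positive medians over all samples, and these were smaller in the shared range, to unequal degrees. Subunits of oxidative phosphorylation were higher for 51 of 57 with a median of 0.63, against 0.20 in the shared range. The aminoacyl-tRNA synthetases had 17 of 19 higher and 0.49, against 10 of 19 and 0.03. Common reference genes had 0.53 and 0.11, and cytosolic ribosomal proteins 0.82 and 0.48, with 21 of 23 higher in each comparison. In these 4 lists limma called 0 genes in either comparison. An unadjusted p under 0.05 on the higher side was found over all samples for 18 oxidative phosphorylation genes, 1 tRNA synthetase, 3 reference genes and 11 ribosomal proteins, where 8.1% of all probes had one. In the shared range these counts were 1, 0, 0 and 3, against 3.13% of all probes. The 4 peroxiredoxins measured had medians of 1.30 and 0.47: PRDX6 had 12.49 and 12.10 in replicates 1 and 3 but 10.28 and 10.18 in replicates 2 and 4, within its control range of 8.33 to 10.94. For mitosis the medians were 1.12 and 1.13, the second running from 0.57 to 1.30 over the alternatives. Its mean log2 level was still higher in replicates 1 and 3 (7.80 and 7.62) than in 2 and 4 (7.41 and 7.24). The difference between replicates 1 and 3 and replicates 2 and 4 cannot be told apart from the array number range.

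**Figure D4:**
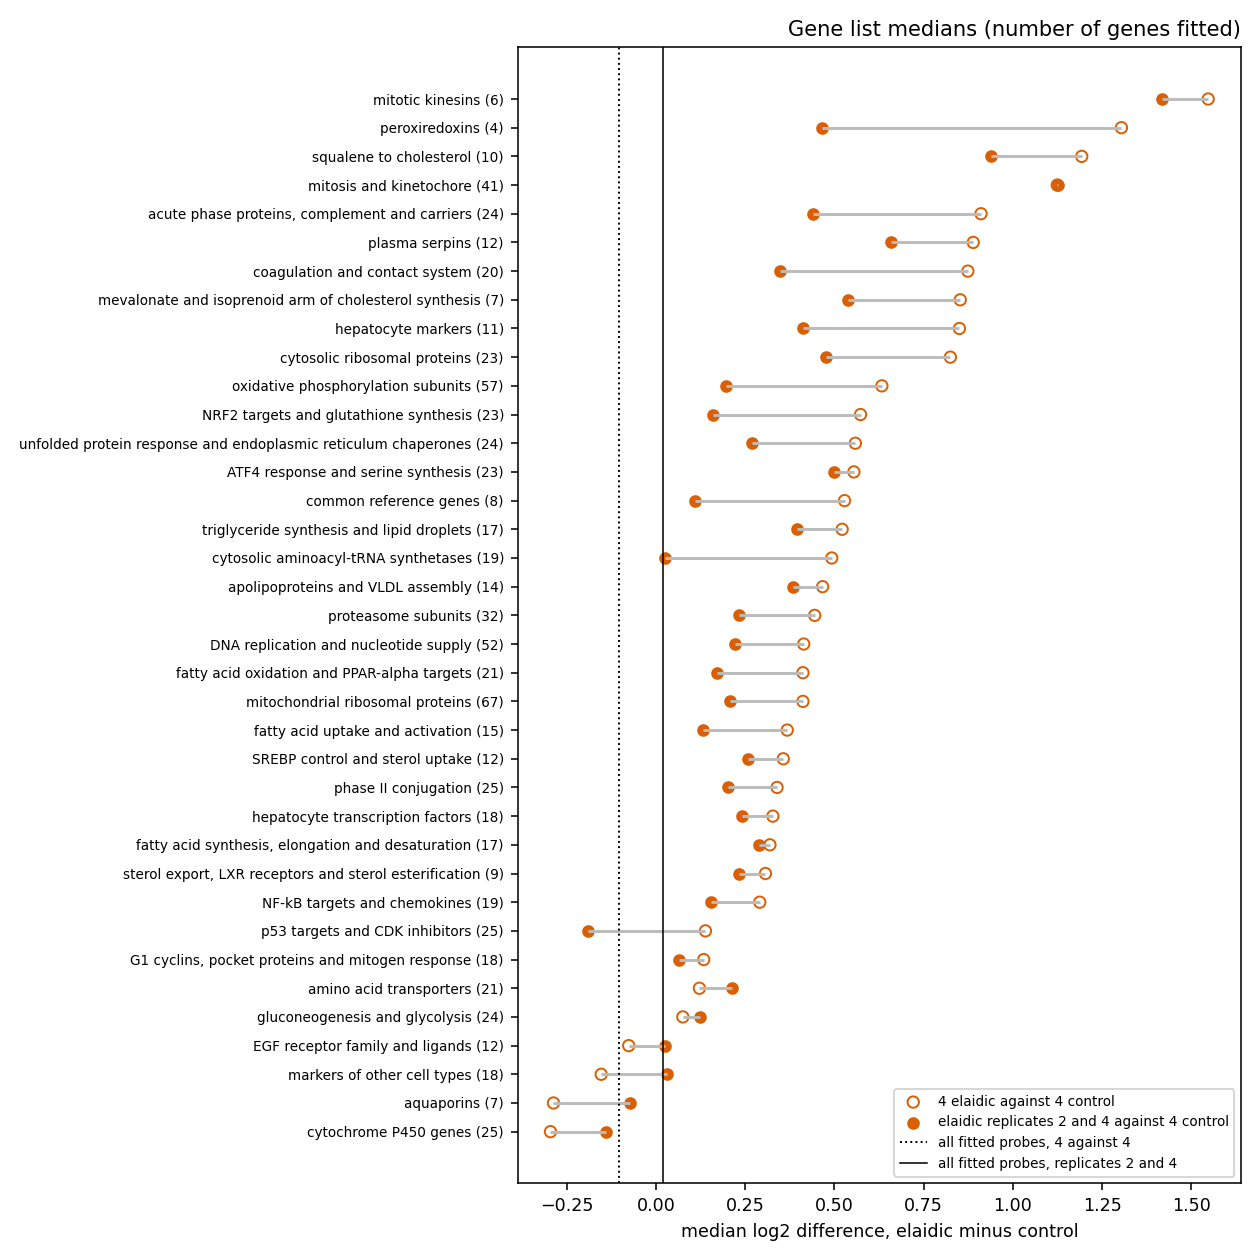
Median log2 difference of each gene list over 4 elaidic acid against 4 control samples (open) and for replicates 2 and 4 against the 4 controls (filled), with the number of genes in brackets and vertical lines at the median of all fitted probes (-0.10 dotted, 0.02 solid). The mitosis points coincide under the main settings (the filled one ran from 0.57 to 1.30 over the alternatives), and those of peroxiredoxins, acute phase proteins and tRNA synthetases lie far apart.

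Control replicate 1 was low in many of these lists. Its mean log2 level was 7.23 for peroxiredoxins, 8.72 for oxidative phosphorylation and 8.06 for tRNA synthetases, against 8.29 to 8.60, 9.33 to 9.61 and 8.50 to 9.20 in the other controls. For mitosis it was 6.35, inside the 6.30 to 6.48 of the other controls. For the squalene arm it was 7.91, below the 8.22 to 8.57 of the others, and the elaidic acid samples were at 9.09 to 9.89. Without this sample the list medians were 0.96 for peroxiredoxins, 0.40 for oxidative phosphorylation, 0.25 for tRNA synthetases, 1.16 for mitosis and 1.12 for the squalene arm.

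Of the called probes 4 were lower. Over all probes 12965 differences were negative and 9974 positive, with 1424 lower (6.21%) and 1859 higher (8.1%) at an unadjusted p under 0.05, and array weights in the fit gave 2632 higher and 2024 lower calls. OTOA, otoancorin, had log2 levels of 3.97, 3.19, 3.75 and 1.66 in control and 0.33, -1.87, -0.24 and 0.89 with elaidic acid, all near background. OTOA fell by 3.37 on the log2 scale (SE 0.56; adjusted p = 0.017). PDE2A, a cyclic nucleotide phosphodiesterase, had 6.23, 6.50, 5.39 and 5.24 against 4.07, 3.11, 3.74 and 4.59, and fell by 1.96 (SE 0.34; adjusted p = 0.023). SYTL2, which tethers secretory vesicles, had 7.16, 8.02, 7.41 and 7.46 against 6.48, 5.62, 6.34 and 5.99, and fell by 1.41 (SE 0.27; adjusted p = 0.040).

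ADAM9, a membrane protease that can shed growth factors, fell by less but from even controls. It had 11.14, 11.13, 11.10 and 11.02 in control and 9.76, 9.82, 9.83 and 10.33 with elaidic acid. ADAM9 fell by 1.17 (SE 0.20; adjusted p = 0.017), and the shared-range difference was -1.02 ± 0.23 (adjusted p = 0.15). The other proteases and receptors of its list had no call, and the median of the list was -0.08. In the shared range 3 other genes were called lower. CPA4, a carboxypeptidase, fell by 2.11 there, METTL8, an RNA methyltransferase, by 1.93, and CEP95 (CCDC45), a centrosomal protein, by 2.52. Replicates 1 and 3 did not share these falls to that extent, as for CEP95 with 5.10 and 4.87 against 3.70 to 4.94 in control and 1.39 and 2.01 in replicates 2 and 4.

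Cytochrome P450 genes had the lowest list median over all samples, -0.30, and -0.14 in the shared range, where the p53 list was lower; 18 of 25 and 16 of 25 were lower. In limma 0 were called, and 2 had an unadjusted p under 0.05, both lower (6.21% of all probes). CYP3A4, the main drug-metabolising enzyme of adult liver, had 6.23 to 6.94 in control and 5.58 to 6.47 with elaidic acid, a difference of -0.69 ± 0.31. CYP27A1, which starts the acidic pathway of bile acid synthesis, had 12.57 and 12.41 in replicates 1 and 3 and 10.37 and 10.11 in replicates 2 and 4, giving 1.03 ± 0.51 over all samples and -0.10 ± 0.39 in the shared range. Aquaporins had 6 of 7 genes lower over all samples and 4 of 7 in the shared range, with medians of -0.29 and -0.07. On the lower side 1 of 7 did not overlap between groups (2.68% of all probes), and 2 of 7 in the shared range (5.72%). AQP6 had 6.53 to 7.49 in control and 5.29 to 6.48 with elaidic acid, a difference of -0.95 ± 0.32 that was not called (adjusted p = 0.21). NF-kB targets had medians of 0.29 and 0.15 with 0 called by limma and 3 higher and 2 lower at an unadjusted p under 0.05 (8.1% and 6.21% of all probes), and CXCL3, a chemokine, had -1.11 ± 0.44.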

How the data were processed

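Expression was measured on 1-colour arrays in 16 HepG2 samples, 4 per group. Linear background-subtracted intensity was deposited, and the column medians show no scaling between arrays. Per the labels, each sample had 2 technical replicate arrays. Only 1 value for each probe in a sample was deposited, and how the authors combined the arrays is not given in the sources used here. Some values sit near the scanner's upper limit (65000 and above: 1 to 15 probes per sample used here). Precision is limited by the number of arrays.

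Of 30968 probes, 8029 were dropped because at least 1 sample was not above 0. The other 22939 were transformed to log2, quantile normalised over all 16 samples and fitted over 4 groups in R 4.3.3 by limma 3.58.1 with lmFit, then two-sided eBayes tests, with Benjamini-Hochberg adjustment over all probes and a threshold of 0.05. The shared-range comparison adds the array number range as a term, which makes the contrast the mean of elaidic acid replicates 2 and 4 minus the mean of the 4 controls. The script was tested on simulated data. Figures were drawn with matplotlib 3.10.9 and tables made with pandas 2.3.3 in Python 3.11.15.

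Probe symbols come from the platform annotation, updated through RefSeq. Named were the genes of smallest p in each list (at most 6), the cholesterol enzymes in pathway order, the 12 largest rises and all falls with 1 symbol, the genes called in both comparisons and a few genes fixed by name, of which some items are not reported here; the other called genes with a symbol were added after their values were seen. The comparison, the lists and the named genes were chosen with earlier results of these data known, and how many genes to name per list and which promoters to show were settled after the values were seen. Lists are described by counts and medians, without a test. Promoter motifs were searched on both strands in RefSeq windows of 300 bases. Alternatives covered normalisation, dim probes, variance models, samples in the fit, the replicate number and leaving out each sample.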

Additional observations from a re-analysis of the deposited data

Results flagged for a closer look

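In groups of 4 samples, a value was singled out when its gap to the nearest other value passed Dixon's 95% limit; chance marks about 1 in 20 groups, and 17 of the 434 groups examined were marked. Of the controls, replicate 1 stood below the others for ABCA1 (8.12 against 9.31 to 9.41), CYP27A1 (9.72 against 10.53 to 10.55), F10 (8.63 against 9.91 to 10.09) and TRIB3 (9.97 against 10.85 to 10.91), and above them for AQP11 (6.05 against 5.44 to 5.51). Control replicate 2 was low for CYP3A4 (6.23) and high for MRPL36 (5.77), a protein of mitochondrial ribosomes, and control replicate 3 was high for MDM2 (8.39).

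Of the elaidic acid samples, replicate 4 was nearest to the controls for ADAM9 (10.33 against 9.76 to 9.83), HSPA5 (5.79 against 6.77 to 6.88), F12 (8.06 against 8.71 to 8.77) and C8A, a complement component (10.06 against 10.29 to 10.34). It was also low for EIF4EBP1, a translation repressor (13.17), and high for AGPAT3, an acyltransferase of phospholipid synthesis (9.45 against 8.58 to 8.72). Replicate 2 was high for DGAT1 (12.98), HPX (11.26) and AUNIP, a mitotic spindle protein (9.44 against 8.95 to 8.97). All are log2 levels. No explanation of these values was tested.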

How the results depend on the processing

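The number of called probes depended on the processing. Against 74 probes over 4 against 4 samples, limma called 0 without normalisation (1391 at an unadjusted p under 0.05), 0 on the 8 elaidic acid and control samples alone (2166) and 0 on the samples of the shared array range (1001). It called 1 with a minimum change of 1.5-fold, 9 with the array number range as a term, 154 with an intensity trend, 189 among the brighter 50% of probes, 224 with an offset of 50 and all probes kept, and 4656 with array weights (2632 higher and 2024 lower). In the shared-range comparison, against 9, the counts were 0 without normalisation, with elaidic acid and control samples only, with range A samples only and with the 1.5-fold minimum, 3 with median scaling and 3 with cyclic loess, 15 with array weights, 29 with an intensity trend, 29 among those brighter probes, 31 with 1 probe per gene and 58 with the offset. The cause of these shifts was not tested, except that the smaller fits use fewer samples. Median scaling gave 63 calls over all samples, of which 56 were among the 74, and cyclic loess 78, of which 70 were.

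Leaving out 1 sample in turn gave 25 to 114 calls over all samples: 33 without control replicate 1, 38 without control 2, 36 without control 3, 52 without control 4, 25 without elaidic acid replicate 1 or 3, and 114 without replicate 4. In the shared range it gave 1 to 99: 5 without control replicate 1, 1 without control 2, 2 without elaidic acid replicate 1 or 3, 29 without replicate 2 (26 of them lower) and 99 without replicate 4 (91 lower), where each of the last pair leaves 1 treated sample that is assumed to vary like the others. Of the 65 called genes with a symbol, 23 to 53 stayed called in these fits. Their signs could not change there, because the groups did not overlap for any of the 74 called probes.

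Same-numbered control and elaidic acid samples correlated at -0.462, -0.246, -0.11 and -0.405 in their deviations from the group means. For every control the sign was the same with elaidic acid replicates 1 and 3 and opposite with 2 and 4. Control replicate 1, for instance, had -0.462 and -0.429 with the first pair and 0.428 and 0.401 with the second. Because the signs follow the array ranges, this check cannot tell whether the numbers pair the samples. With a replicate block 28 probes were called over all samples and 0 in the shared range.

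A few differences that were not called changed sign. With the range as a term, or on range A samples only, CDKN1A was at -0.19, CYP27A1 at -0.10 and PRDX4, a peroxiredoxin, at -0.11. SREBF1 was at -0.027 with cyclic loess and -0.10 with array weights, and ran from -0.062 to 0.18 when 1 sample was left out, below 0 without control replicate 2 or 4 or elaidic acid replicate 2 or 4. The median of mitosis genes ran from 0.69 to 1.22 over the alternatives and from 0.57 to 1.30 in the shared range, that of the squalene arm from 0.94 to 1.41, that of the mevalonate arm from 0.54 to 1.07 and that of cytochrome P450 genes from -0.38 to -0.10. The other cell type markers ran from -0.22 to 0.03 and the p53 list from -0.19 to 0.33.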

Other observations

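Of the 74 called probes, 9 have no gene symbol in the annotation used here, and all 9 were higher. Probe PH_hs_0009437 rose by 2.42 ± 0.29 (SE, n = 4 per group; limma adjusted p = 0.0025) and was the sixth called in both comparisons, with a shared-range rise of 2.02 (adjusted p = 0.040). Probe PH_hs_0004394 rose by 2.83 ± 0.56 (adjusted p = 0.042).

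Called genes outside the groups described included several with no shared list. TSC22D3, the glucocorticoid-induced leucine zipper, had 5.82, 5.57, 5.25 and 4.89 in control and 7.08, 6.98, 7.22 and 6.71 with elaidic acid, and rose by 1.62 ± 0.24 (adjusted p = 0.0094). MEP1A, a subunit of the metalloprotease meprin, rose by 1.60 ± 0.25, IL17B, a cytokine, by 1.26 ± 0.24 and PI3, the elastase inhibitor elafin, by 1.34 ± 0.25. In each of these genes all 4 elaidic acid samples lay above all controls, as for every probe called higher. UTP6, of ribosome assembly, and TTC7B rose by 2.46 ± 0.48 and 2.33 ± 0.41 from control levels near background (0.01 to 3.01 and 0.88 to 3.33).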
